A study of Mus musculus with 28 samples.

Results

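The promoters described here belong to the nuclear genes of the mitochondrial respiratory chain and ATP synthase. Members were the protein-coding mouse genes outside the mitochondrial genome whose symbols begin with Nduf, Uqcr, Atp5 or Cox followed by a number, together with Sdha, Sdhb, Sdhc and Sdhd. The rule found 105 of 21900 protein-coding genes, and a start site could be placed for 104 of them. A promoter region was a deposited region whose centre lay within 1 kb of that start site. Of the members, 98 had at least 1 such region, against 14312 genes in the whole annotation, and they held 120 of the 127646 regions. The rule used names and positions and no measured value.

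Mouse embryonic stem cells (mESCs) of the genotype FOXD3-iKO were profiled by CUT&Tag, which cuts and tags DNA next to an antibody-bound chromatin protein. All groups carried this genotype and the culture label L2i, with a treatment time of 24 h. H3K27ac in asynchronous cells was measured in 2 samples labelled EtOH, the solvent, and 2 samples labelled 4HT, the tamoxifen form given to deplete FOXD3. H2BK120ac was measured in 3 samples each of groups named ED, ET, TD and TT, codes that the labels do not spell out. Another 12 samples, from cells sorted by phase of the cell cycle, were not used. The labels give neither the construct behind the inducible genotype nor whether the line is a single clone, and they do not say whether same-group samples came from separate cultures. The authors merged the samples of a group, so that each group has 1 column of values and no spread between samples can be given. No test was therefore possible, and the differences below are descriptions with counting intervals.

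The respiratory chain is built in the inner mitochondrial membrane from complex I (NADH dehydrogenase), complex II (succinate dehydrogenase), complex III (cytochrome bc1) and complex IV (cytochrome c oxidase), and the proton gradient they make drives ATP synthase. Most subunits are encoded in the nucleus, and their genes are expressed in nearly every cell type, so their promoters are a standard case of housekeeping promoters. The factors NRF1, GABP (of the ETS family) and YY1 are known to bind many of them. Acetylation of H3K27 and of H2BK120 marks active promoters and enhancers.

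Promoter windows from 250 bases before to 50 bases after the start site, from RefSeq on GRCm38.p6 (the assembly of mm10), could be matched for 85 of the 105 members. The windows of 6 members are shown because the results turn on them. Cox20 had the highest coverage of both marks. Cox6a1 holds the full palindromic NRF1 motif, Cox8a holds the ETS motif at 2 positions around its start, and Ndufs6 holds the YY1 motif downstream of its start. Cox6b1 and Cox6b2 are the broadly expressed and the testis form of 1 subunit. Each is written from 5′ to 3′ on the strand of the gene, and capitals mark the NRF1 motif (GCATGCGC or its reverse complement GCGCATGC), the ETS motif (CCGGAAG or CTTCCGG) and the YY1 motif (AAGATGGC or GCCATCTT).
Cox20 (chr1:178318903-178319202, plus strand): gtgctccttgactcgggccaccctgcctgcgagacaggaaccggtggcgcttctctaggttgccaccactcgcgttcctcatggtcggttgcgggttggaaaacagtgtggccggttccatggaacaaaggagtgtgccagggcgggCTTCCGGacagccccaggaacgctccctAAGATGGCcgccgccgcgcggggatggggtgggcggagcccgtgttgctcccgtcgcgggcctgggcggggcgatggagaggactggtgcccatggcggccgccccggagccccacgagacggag
Cox6a1 (chr5:115348909-115349208, minus strand): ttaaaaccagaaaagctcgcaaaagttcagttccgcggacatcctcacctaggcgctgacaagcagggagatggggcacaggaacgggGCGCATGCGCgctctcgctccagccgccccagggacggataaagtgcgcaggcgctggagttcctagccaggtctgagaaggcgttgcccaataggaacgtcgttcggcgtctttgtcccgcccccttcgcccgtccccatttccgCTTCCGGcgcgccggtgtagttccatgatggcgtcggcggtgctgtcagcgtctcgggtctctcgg
Cox8a (chr19:7217567-7217866, minus strand): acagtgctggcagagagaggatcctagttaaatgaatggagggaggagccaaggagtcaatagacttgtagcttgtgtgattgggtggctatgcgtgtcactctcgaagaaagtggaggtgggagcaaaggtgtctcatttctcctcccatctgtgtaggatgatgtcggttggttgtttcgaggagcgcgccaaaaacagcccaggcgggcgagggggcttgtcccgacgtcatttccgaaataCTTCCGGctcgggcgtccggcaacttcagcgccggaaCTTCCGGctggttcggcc
Ndufs6 (chr13:73328433-73328732, minus strand): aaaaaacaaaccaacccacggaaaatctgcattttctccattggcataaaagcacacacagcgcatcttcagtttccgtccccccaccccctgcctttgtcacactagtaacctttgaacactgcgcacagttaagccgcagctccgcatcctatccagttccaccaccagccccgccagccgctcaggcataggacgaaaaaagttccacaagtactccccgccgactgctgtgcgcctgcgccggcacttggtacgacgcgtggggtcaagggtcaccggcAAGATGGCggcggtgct
Cox6b1 (chr7:30626065-30626364, minus strand): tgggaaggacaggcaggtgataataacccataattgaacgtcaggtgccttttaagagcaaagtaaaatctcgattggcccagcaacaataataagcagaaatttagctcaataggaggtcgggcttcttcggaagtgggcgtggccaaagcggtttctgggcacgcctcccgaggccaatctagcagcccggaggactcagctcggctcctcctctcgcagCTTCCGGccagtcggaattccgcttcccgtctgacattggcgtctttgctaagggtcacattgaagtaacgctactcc
Cox6b2 (chr7:4753045-4753344, minus strand): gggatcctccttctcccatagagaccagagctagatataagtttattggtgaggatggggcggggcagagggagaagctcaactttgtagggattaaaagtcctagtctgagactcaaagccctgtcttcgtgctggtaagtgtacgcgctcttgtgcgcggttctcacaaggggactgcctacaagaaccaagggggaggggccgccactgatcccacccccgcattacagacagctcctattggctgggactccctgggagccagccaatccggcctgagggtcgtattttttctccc

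Values are mean coverage over the covered bases of a region, scaled by the authors to sequencing depth (CPM), and a region with no value was counted as 0. A gene with several promoter regions was given their mean weighted by width. In each column 1 value was far commoner than any other and was taken as that of 1 fragment: 0.165 CPM in EtOH, 0.207 CPM in 4HT and 0.412 to 0.445 CPM in the H2BK120ac groups. Fragments below are values divided by this unit. They give a mean depth over covered bases, not the number of fragments that fell in a region. The smaller this value, the deeper the column, so the H3K27ac columns were deeper than those of H2BK120ac. In H2BK120ac some values were 0.25 of the commonest one, so a fragment may be worth less there than assumed. The median member promoter then had a depth of 4.30 fragments in EtOH, 4.01 in 4HT, 1 in ED and 1 in ET, and 1.72 in TD and 1.89 in TT. Averaged over the columns of a mark, 40 members reached 5 fragments for H3K27ac and 1 member, Cox20, did so for H2BK120ac.

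The mESC label was checked against marker promoters. All 8 pluripotency markers had coverage in EtOH and in 4HT, with summed H3K27ac of 16.6 and 24.2 CPM and medians of 1.96 and 2.75 CPM. Esrrb was low among them, at 0.108 and 0.168 CPM. The 3 of 5 primitive endoderm markers with a region summed to 0.517 and 0.705 CPM, and the 4 of 6 fibroblast markers with a region to 0.631 and 0.165 CPM. All of these also had some coverage in EtOH, so presence alone does not separate the lists. In H2BK120ac the pluripotency medians were 0.794, 0.520, 1.98 and 1.77 CPM in ED, ET, TD and TT. Gata6, an endoderm marker, had 1.22, 0.912, 0.412 and 0.530 CPM in the same order. Gata6 thus stood above the pluripotency median in ED and ET and below it in TD and TT. H3K27ac at the Foxd3 promoter was 1.02 CPM in EtOH and 2.81 CPM in 4HT; promoter acetylation does not measure FOXD3 protein and is no check of the depletion. In ED and ET, promoter regions of all genes held 14.2% and 13.7% of the summed coverage, close to their 14.2% share of the regions. In TD and TT they held 23.3% and 23.7%, and in EtOH and 4HT 19.7% and 20.4%. The part of this difference between H2BK120ac columns in the results below was not tested.

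Respiratory chain promoters carried more H3K27ac than the median promoter. The median member had 0.707 CPM in EtOH and 0.832 CPM in 4HT, against 0.388 and 0.440 CPM over all 14312 genes. This was not particular to them. The EtOH medians were 0.588 CPM for mitochondrial ribosomal protein genes, 0.754 for proteasome genes and 0.963 for genes named as cytosolic ribosomal proteins. H2BK120ac did not separate members from other genes in ED and ET, where both medians were 0.445 CPM, the value of 1 fragment. In TD and TT the median member had 0.706 and 0.784 CPM, against 0.462 and 0.486 CPM over all genes. No coverage was seen at 16 members in ED and 18 in ET, but at 8 in TD and 3 in TT. These are 16.3%, 18.4%, 8.16% and 3.06% of members, while the shares over all genes were 19.2%, 19.4%, 18.8% and 17.9%. Low shares in TD and TT were also seen in the other housekeeping sets. They were 7.69% and 2.56% for mitochondrial ribosomal, 10.4% and 12.5% for proteasome and 1.06% and 2.13% for cytosolic ribosomal genes. In EtOH and in 4HT 3 members had none, or 3.06%, against 5% and 9.82% of all genes.

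**Figure D1:**
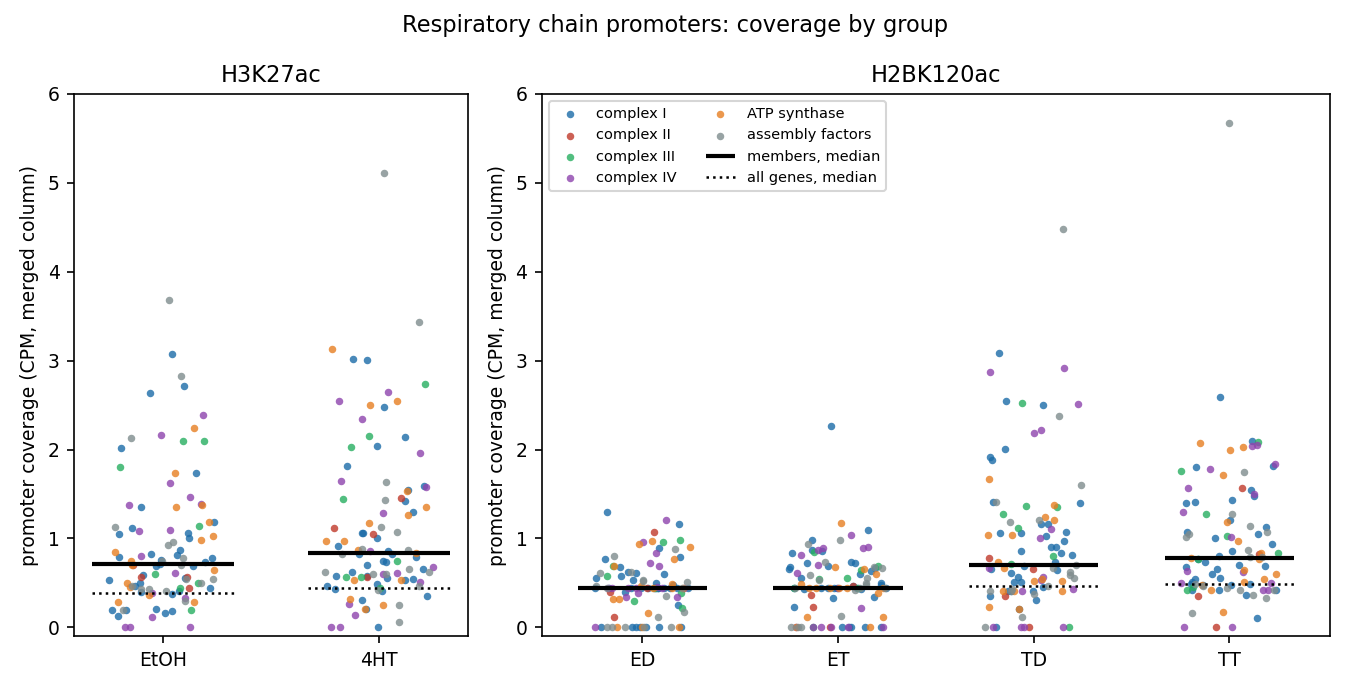
Promoter coverage in CPM (vertical axis) of the 98 members in each of the 6 merged columns, for H3K27ac on the left and H2BK120ac on the right. Each point is a gene coloured by complex (the supercomplex factor Cox7a2l is counted among the assembly factors), thick lines are member medians and dotted lines medians of all genes; the member medians lie above the dotted lines except in ED and ET, and Cox20 is the highest point in EtOH, 4HT, TD and TT.

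Cox20, an assembly factor that helps mature the complex IV subunit COX2, led both marks. Its promoter region, chr1:178318149-178319382 on mm10, spans the start site and is shared with no other protein-coding start. H3K27ac there was 3.68 CPM in EtOH and 5.11 CPM in 4HT. H2BK120ac was 0.611 CPM in ED and 0.977 in ET, and 4.48 in TD and 5.67 in TT. The TD and TT values stand above every other member, while in ED and ET Cox20 was within the range of the rest.

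After Cox20, the highest mean H3K27ac was found at Cox18, Ndufb1, Ndufs6 and Ndufb4. Cox18, which inserts COX2 into the inner membrane, had 2.83 CPM in EtOH and 3.44 CPM in 4HT. Ndufs6, an accessory subunit of complex I close to its iron-sulfur clusters, had 2.63 and 3.02 CPM. Ndufb1, an accessory subunit in the membrane arm of complex I, had 3.08 and 3.01 CPM. Its start site shares a region with Cpsf2, a gene of mRNA 3′ end processing, so the coverage cannot be assigned to either gene. For H2BK120ac the highest means after Cox20 were at Ndufb1, Ndufb4, Ndufa4 and Cox6b2.

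Ndufb4, a membrane-arm subunit of complex I, differed from the other high members in its mean weighted by width. Its H2BK120ac was the highest of all members in ED, at 1.30 CPM, and in ET, at 2.26 CPM. In TD and TT it was 1.40 and 1.39 CPM, so its TT value was below that of ET. The regions behind this mean went opposite ways. The strongest, chr16:37654066-37654188, had 2.07, 1.78, 2.80 and 3.49 CPM in ED, ET, TD and TT, so it was higher in TD and TT. The other, chr16:37654374-37654634, had 0.940, 2.49, 0.746 and 0.406 CPM. Ndufa4, once counted with complex I and now placed in complex IV, was higher in TD and TT, with 0.341 CPM in ED and 1.04 in ET, and 2.91 in TD and 2.05 in TT.

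The member of median H3K27ac level is given for each complex, as a single gene that need not follow its complex in other respects. Ndufa10 (complex I) had 0.461 CPM in EtOH and 0.916 CPM in 4HT. Sdha, the flavoprotein of complex II, had 0.571 and 1.05 CPM, and Uqcrc1, a core protein of complex III, had 0.501 and 0.750 CPM. Most members thus had a mean depth of a few fragments per column. Cox7a1 (complex IV) had 1.10 and 0.616 CPM. Atp5e, the epsilon subunit of ATP synthase, had 1.02 and 0.970 CPM. Among assembly factors, Cox17, a copper chaperone for complex IV, had 0.700 and 1.07 CPM, and Ndufaf2, a chaperone of complex I, had 0.434 and 0.658 CPM. Cox7a2l, a supercomplex assembly factor and the only gene of its class, had 2.13 and 1.63 CPM.

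The first comparison asks whether H3K27ac at these promoters differed after 4HT. It was nearly the same as at promoters in general. Summed over the 120 member regions, coverage was 1.21 times as high in 4HT as in EtOH (95% counting interval 1.08 to 1.35), and over all 18131 promoter regions it was also 1.21 times as high. The median log2 fold, taken on values plus a pseudocount of 0.2 CPM, was 0.22 for members and 0.15 for all genes. With the columns scaled to the same sum, the members' median was 0.05 and that of all genes 0. At least 2-fold higher in 4HT were 3 members, or 3.06%, against 4.38% of all genes. At least 2-fold lower were 2 members, or 2.04%, against 3.17%. These shares lie near the background. With the columns scaled to the same sum, 1.68% of all genes were higher and 3.84% lower, and 1 member was higher. More cells with the mark and more mark per cell cannot be told apart in such bulk profiles.

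The 3 higher members were Sdhc, Atp5g1 and Cox5b. Sdhc, a membrane anchor of complex II, had 0.567 CPM in EtOH and 1.46 CPM in 4HT, a log2 fold of 1.11. In its strongest region, at chr1:171150158-171150888, the ratio was 2.69 with a counting interval of 0.675 to 11.4. Atp5g1, which encodes subunit c of the proton-turning ring, had 1.36 and 3.13 CPM, a log2 fold of 1.10 and a ratio of 2.30 with an interval of 0.940 to 6.43. Both intervals include 1. Cox5b, a nuclear subunit of complex IV, had no coverage in EtOH and 0.266 CPM in 4HT, a mean depth of little more than 1 fragment. The 2 lower members were Atp5o, a stalk subunit of ATP synthase, with 0.706 and 0.207 CPM, and Cox19, a copper-handling assembly factor, with 0.409 and 0.0599 CPM.

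Among members that averaged at least 5 fragments, the largest differences toward 4HT after Sdhc and Atp5g1 were at Cox6b1, Ndufc1 and Ndufs1. Cox6b1 had 0.806 and 1.58 CPM, Ndufc1, a small membrane subunit of complex I, had 0.730 and 1.42 CPM, and Ndufs1, the largest iron-sulfur subunit of complex I, had 0.708 and 1.29 CPM. Toward EtOH the largest were at Cox7a2l (log2 fold -0.34), Ndufv2 (-0.31), Cox11 (-0.30), Cox6c (-0.27) and Atp5a1 (-0.24). Ndufv2 and Atp5a1 encode catalytic-core proteins of complex I and ATP synthase, and Cox11 delivers copper to complex IV. In none of the 98 members did the counting interval of the strongest region exclude 1. By complex, the summed ratio ran from 1.17 (0.969 to 1.41) for complex I to 1.77 (0.867 to 3.68) for the 4 genes of complex II. The complex intervals overlap.

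H2BK120ac was higher at respiratory chain promoters in TD than in ED. Summed coverage over the member regions was 110.3 CPM in TD and 53.5 CPM in ED, a ratio of 2.06 (95% counting interval 1.66 to 2.58). Over all promoter regions the ratio was 1.67 (1.64 to 1.70), just inside the members' interval. The median log2 fold, with a pseudocount of 0.4 CPM, was 0.65 for members and 0.09 for all genes. For the 65 members whose regions are shared with no other protein-coding start it was 0.15, and for the other 33 it was 0.79. At least 2-fold higher in TD were 27 members, 27.6% of them, against 20.0% of all genes. Of these 27, 13 had no coverage in ED and 9 had under 2 fragments in both columns. Over all genes, of the 2859 higher in TD, 1302 had no coverage in ED and 1084 had under 2 fragments in both columns. At least 2-fold lower were 5 members, 5.10%, against 9.39% of all genes.

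TT against ET gave similar sizes in separate columns. Summed coverage was 115.9 CPM in TT and 59.96 CPM in ET, a ratio of 1.93 (1.57 to 2.39), against 1.60 (1.57 to 1.63) over all promoter regions. The median log2 fold was 0.64 for members and 0.12 for all genes. At least 2-fold higher in TT were 30 members, 30.6%, against 19.8% of all genes, and 16 of the 30 had no coverage in ET. Over all genes 1322 of the 2830 higher in TT had no coverage in ET. At least 2-fold lower was 1 member, against 8.45% of all genes: Ndufs4, an accessory subunit of complex I, with 0.726 CPM in ET and 0.104 CPM in TT.

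**Figure D2:**
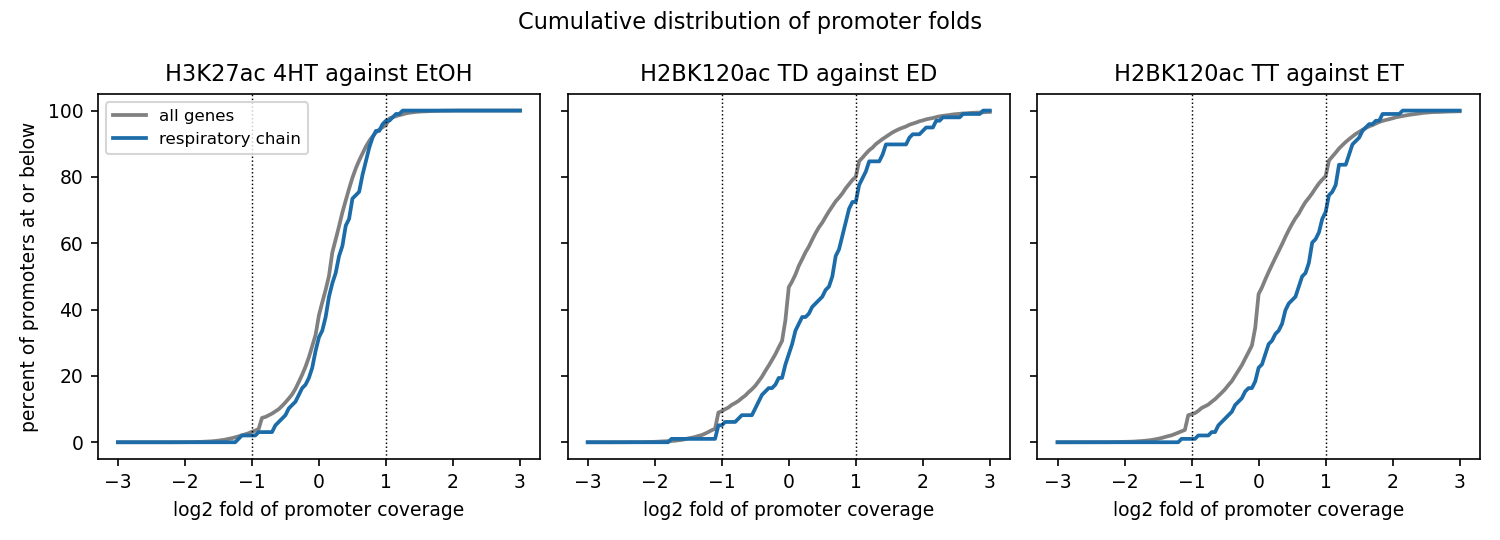
Cumulative percent of promoters (vertical axis) at or below a given log2 fold (horizontal axis) in 3 comparisons, for the 98 members and for all 14312 genes; dotted lines mark 2-fold. The member curve lies close to that of all genes for H3K27ac and to the right of it over most folds for the H2BK120ac comparisons TD against ED and TT against ET.

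For single promoters the depth set the limit. Cox20 was higher in TD than in ED by a ratio of 7.33 (1.48 to 438) and higher in TT than in ET by a ratio of 5.80 (1.5 to 59.1), and it was the member whose intervals excluded 1 in both comparisons. Ndufb6, a membrane-arm subunit of complex I, had no coverage in ED, 0.551 CPM in ET, 2.55 CPM in TD and 2.09 CPM in TT. Its region at chr4:40278827-40279864 had a mean depth of 6 fragments in TD and none in ED. On these rounded depths, treated as counts, the lower bound of the ratio is 1.09. No member had an interval wholly below 1 in either comparison. The share of all promoters whose intervals exclude 1 was not worked out. The intervals were not corrected for the 98 members looked at, so these cases are descriptions only. Ndufb1 had 0.602 CPM in ED and 3.09 CPM in TD, a ratio of 5.13 with an interval of 0.992 to 328. The interval of Ndufb1 thus just includes 1.

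Members at least 2-fold higher in both comparisons numbered 9, which is 33.3% of the 27 and 30% of the 30. Over all genes 1246 were higher in both, 43.6% and 44.0% of the respective lists. The 9 were Atp5b, Cox18, Cox20, Ndufa10, Ndufaf7, Ndufb1, Ndufb6, Sdha and Uqcrq. Atp5b, the catalytic beta subunit of ATP synthase, had no coverage in ED or ET, 0.412 CPM in TD and 0.605 CPM in TT. Those values are a mean depth of 1 to 2 fragments. Uqcrq, a small subunit of complex III, had 0.959 CPM in ED and 0.445 in ET, and 2.52 in TD and 2.08 in TT. Cox18 had 0.886, 0.421, 2.38 and 1.74 CPM in the same order, and its TD and TT values were both above its ED and ET values.

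The 5 members lower in TD than in ED had no coverage in TD, as did 1213 of the 1344 lower over all genes. Sdhb, the iron-sulfur subunit of complex II, had 0.445 CPM in ED, 0.223 in ET and none in TD or TT. Cox7b, Cox7b2 and Ndufv1, which encodes the NADH-binding subunit of complex I, each had 0.445 CPM, or 1 fragment, in ED. Uqcr11, a small subunit of complex III, had 0.982 CPM in ED. All but Sdhb had coverage again in TT, of 0.415 to 0.768 CPM.

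Split by complex, the summed TD to ED ratio was 2.31 (1.63 to 3.42) for complex I, 2.03 (0.974 to 5.01) for complex III, 1.86 (1.11 to 3.16) for complex IV and 1.63 (0.958 to 3.0) for ATP synthase. For complex II it was 0.844 (0.147 to 3.44). The ratio was 3.28 (1.02 to 13.5) for complex I assembly factors and 2.52 (1.22 to 5.98) for those of complex IV. In TT against ET it was 1.70 (1.21 to 2.36) for complex I, 2.08 (0.881 to 4.65) for complex III, 2.11 (1.28 to 3.81) for complex IV and 2.36 (1.36 to 4.24) for ATP synthase. For complex II it was 1.83 (0.496 to 13.02), on the other side of 1 from its TD to ED ratio. For the assembly factors of complex I and complex IV it was 2.14 (0.891 to 6.45) and 1.84 (0.971 to 3.72), and both intervals include 1. The intervals overlap throughout, so no complex could be set apart from another at this depth. Subunits and assembly factors gave 21 of 80 and 6 of 18 members at least 2-fold higher in TD, against 20.0% of all genes, and 25 of 80 and 5 of 18 in TT, against 19.8%.

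**Figure D3:**
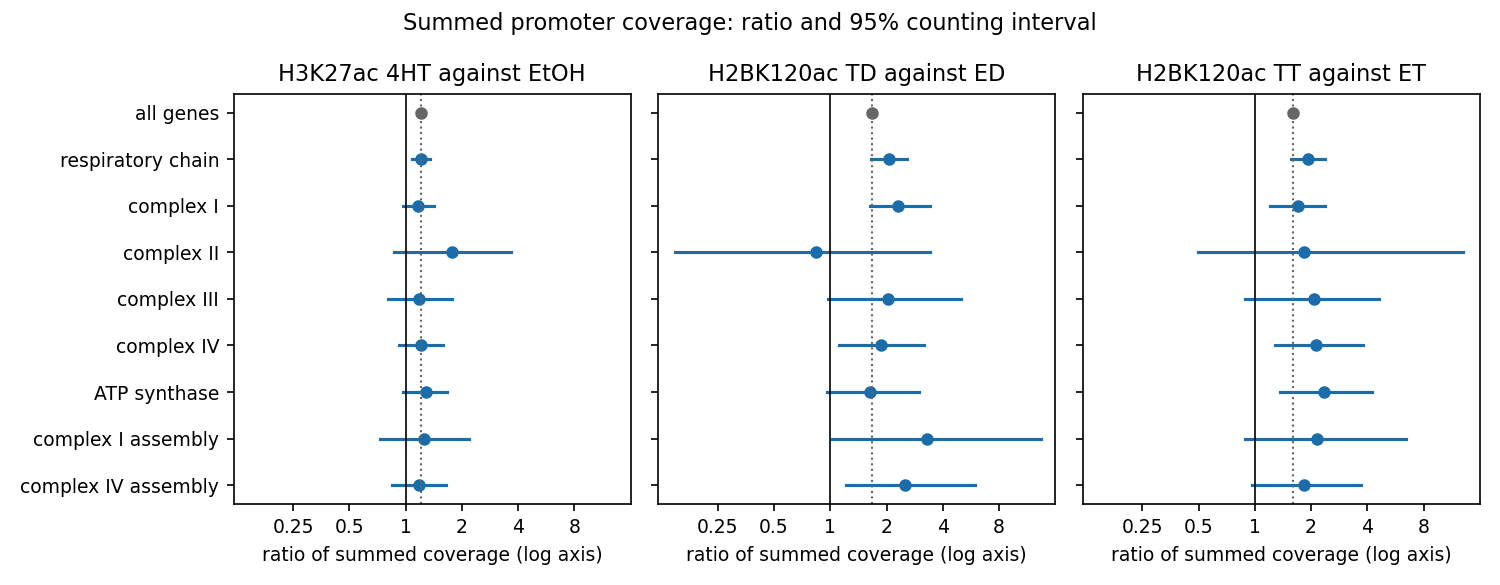
Ratio of summed promoter coverage (horizontal log axis) in 3 comparisons for all genes, all members and each complex with its assembly factors. Dots are ratios, bars are 95% counting intervals, the solid line is 1 and the dotted line is the ratio over all promoter regions; the member bars include the dotted line in H3K27ac and H2BK120ac alike.

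The remaining pairs of H2BK120ac columns share a column with those above. ET and ED were close in sum, with a ratio of 1.12 (0.874 to 1.45). At least 2-fold higher in ET were 11 members, against 9.08% of all genes, and 12 were lower, against 9.54%. All 23 had no coverage in 1 of the 2 columns. Over all genes 1181 of the 1299 higher in ET had none in ED, and 1238 of the 1366 lower had none in ET. TT and TD had a ratio of 1.05 (0.887 to 1.25). Here 4 members were at least 2-fold higher in TT, against 7.96% of all genes, and 2 were lower, against 7.42%. The 4 were Cox7b, Cox7b2, Ndufv1 and Uqcr11, all without coverage in TD, as were 959 of the 1139 higher in TT over all genes. The lower pair were Cox11, with 1.41 CPM in TD and 0.364 CPM in TT, and Ndufb10, a complex I subunit, with 2.0 and 0.485 CPM.

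How alike the columns were over the 98 members is given as a description, since genes are not replicates and the values share depth. Spearman's rho was 0.84 between EtOH and 4HT and 0.69 between TD and TT, but 0.22 between ED and ET. Over all genes these were 0.86, 0.71 and 0.41. Between H3K27ac in EtOH and H2BK120ac, the members' rho was 0.42 for ED, 0.48 for ET, 0.53 for TD and 0.62 for TT, against 0.45, 0.49, 0.63 and 0.64 over all genes.

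Median H2BK120ac folds were larger where H3K27ac was higher, at members and over all genes. In the classes below 0.5 CPM of H3K27ac in EtOH, from 0.5 to 1, from 1 to 2, and at 2 CPM or more, the members' median log2 fold in TD against ED was 0.20, 0.42, 0.73 and 0.94. Over all genes it was 0, 0.29, 0.58 and 0.93. For TT against ET the medians were 0.52, 0.61, 0.75 and 0.91 for members and 0, 0.31, 0.52 and 0.83 over all genes. The counts of members past 2-fold did not follow this order. In TD against ED they were 9 of 31, 6 of 34, 6 of 21 and 6 of 12, against 14.9%, 21.5%, 31.6% and 46.3% of all genes. In TT against ET the member shares were flat, at 32.3%, 29.4%, 28.6% and 33.3%, against 15.8%, 20.7%, 29% and 41% of all genes.

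Members that share a start region with another gene had the larger median fold in TD against ED. Regions of 33 members also lay within 1 kb of another protein-coding start, such as Gabpa beside Atp5j, Mrpl47 beside Ndufb5 and Rps28 beside Ndufa7. Of these 33, 11 members, or 33.3%, were at least 2-fold higher and none lower. Of the 65 members whose regions were shared with no other start, 16 were higher and 5 lower, or 24.6% and 7.69%. The shares over all genes were 20.0% and 9.39%, so in this comparison the unshared members lie near the background, as does their median of 0.15 beside 0.09. Their summed ratio was 1.84 (1.41 to 2.42), against 2.60 (1.76 to 3.96) at shared starts, and the intervals overlap. TT against ET did not show this split. The medians there were 0.77 for shared and 0.58 for unshared starts, against 0.12 for all genes. At least 2-fold higher were 9 of 33 shared (27.3%) and 21 of 65 unshared members (32.3%), against 19.8% of all genes. At least 2-fold lower were 0 and 1, against 8.45%.

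Other housekeeping groups showed TD to ED ratios of the same kind. The ratio was 2.11 (1.62 to 2.76) for 78 mitochondrial ribosomal protein genes and 1.88 (1.41 to 2.55) for 48 proteasome genes. For 94 genes whose symbols begin as those of cytosolic ribosomal proteins (Rpl or Rps) it was 3.27 (2.68 to 3.98). That interval does not overlap that of the respiratory chain. The name rule also takes in related genes such as Rps23rg1 and Rps27l, so the set is not ribosomal proteins alone. Rps27l had its highest TD value, 9.67 CPM. In TT against ET these ratios were 1.91 (1.48 to 2.45), 1.82 (1.34 to 2.5) and 2.80 (2.31 to 3.43), and the last interval overlaps the members' 1.57 to 2.39. For H3K27ac the 3 groups gave 1.33, 1.36 and 1.30, with intervals that overlap that of the members.

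Isoform pairs were set side by side next. Complex IV has subunits with a broadly expressed form and a form restricted to muscle, lung or testis. For Cox4, Cox7b and Cox8 the broad form had the higher H3K27ac. Cox4i1 had 1.38 CPM in EtOH and 1.65 CPM in 4HT, against 0.115 and 0.144 CPM at Cox4i2, the lung form. Cox8a had 1.47 and 1.97 CPM, while the testis form Cox8c had no coverage in any of the 6 columns. Cox7b had 0.609 and 0.674 CPM, and Cox7b2 had no H3K27ac coverage. The restricted forms Cox6a2, Cox8b and Ndufa4l2 had no promoter region.

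Cox6b and Cox7a went the opposite way in H3K27ac. Cox6b2, the testis form, had 2.39 CPM of H3K27ac in EtOH and 2.55 CPM in 4HT, above the 0.806 and 1.58 CPM of Cox6b1. Its H2BK120ac was 0.725 CPM in ED and 0.873 in ET, and 2.51 in TD and 2.04 in TT, while Cox6b1 stayed between 0.214 and 0.458 CPM. Cox7a1, the muscle form, had 1.10 and 0.616 CPM of H3K27ac against 0.382 and 0.510 CPM at Cox7a2. It also had more H2BK120ac in ED and ET, with 0.958 and 0.901 CPM against 0.346 and none, but less in TD, with 0.412 against 0.664 CPM. Coverage was averaged over covered bases only, and these are levels of chromatin marks, not of transcripts.

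**Figure D4:**
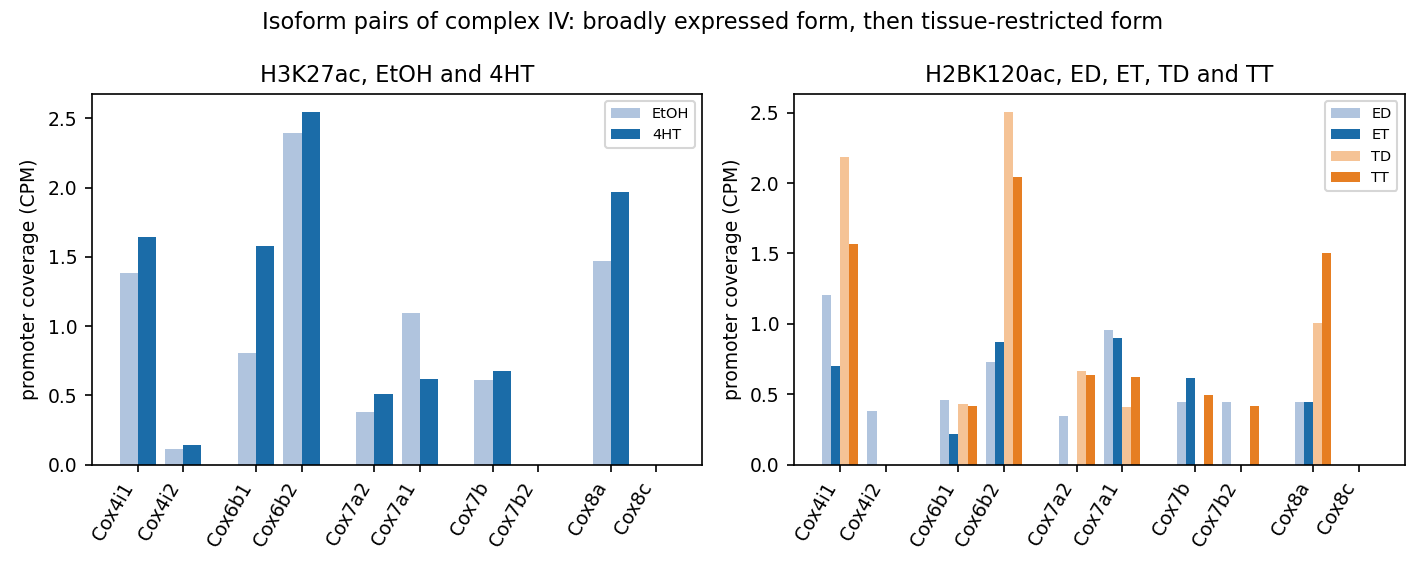
Promoter coverage in CPM (bars from 0) for 5 isoform pairs of complex IV, with H3K27ac on the left and H2BK120ac on the right, 1 bar per merged column and no error bars because the columns are merged. The broad form is taller for Cox4, Cox7b and Cox8 in H3K27ac, while Cox6b2 stands above Cox6b1 in all 6 columns.

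The promoter sequences were searched on both strands in the 91 windows of the 85 matched members and in 21263 windows of protein-coding genes. The palindromic NRF1 motif, whose core GCATGCGC is preceded by GC, was in 7.69% of member windows and 1.33% of all windows, and the core, which the palindrome contains, in 13.2% and 3.52%. The ETS motif CCGGAAG was in 27.5% and 11.6%, and the YY1 motif AAGATGGC in 14.3% and 3.05%. The SP1 motif GGGCGG was in 46.2% of both sets. CCAAT was in 41.8% and 38.2%, and TATAAA in 11% and 12.6%. The forkhead motif TGTTTAC was in 2.20% and 3.01%, and the member windows with it were those of Cox7a2 and Ndufaf1. Member windows also had more CpG dinucleotides, a median of 20 against 13, and a GC content of 59% against 56.33%, and the part of base composition in the motif shares was not tested. A match is a string of letters and not a bound site.

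**Figure D5:**
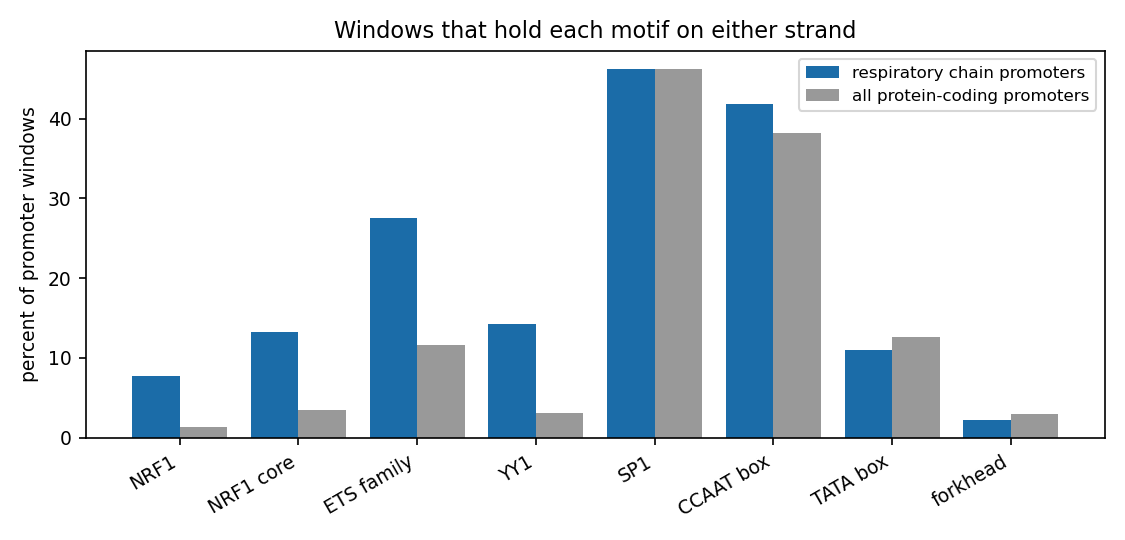
Percent of promoter windows (bars from 0) that hold each motif on either strand, for the 91 member windows and the 21263 windows of all protein-coding genes. Member bars are higher for NRF1, its core, ETS and YY1, and equal or close for SP1, CCAAT, TATA and forkhead.

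In the sequences printed above, Cox20 carries the ETS and YY1 motifs at positions -103 and -75 from its start. It was the only 1 of the 6 with both. Among the other members Atp5j, Cox10 and Ndufaf8 also hold both, and their H3K27ac in EtOH was 2.24, 0.301 and 0.922 CPM. Cox6a1 carries the full NRF1 motif and, at position -16, the ETS motif, yet its H3K27ac was low, with 0.326 CPM in EtOH and 0.602 CPM in 4HT. Cox6b2 holds none of the 3 motifs, and its coverage was higher than that of Cox6b1, which holds the ETS motif. Over the members, the 7 genes with the full NRF1 motif had a median H3K27ac of 0.504 CPM in EtOH, against 0.750 CPM for the 75 without it. For the ETS motif these medians were 0.700 and 0.749 CPM, and for YY1 0.794 and 0.700 CPM. Single members ran from no coverage to 3.68 CPM, and whether these medians differ was not tested.

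Pathway genes that the naming rule leaves out were read from a list of assembly factors, cytochrome c and regulators, of which 50 had a promoter region. Of these 15 were at least 2-fold higher and 1 was lower in TD than in ED, 18 and 0 in TT against ET, and none in either direction in H3K27ac. The background shares are those given above for all genes. Summed ratios were 2.42 (1.84 to 3.27), 2.45 (1.86 to 3.27) and 1.19 (1.01 to 1.39). Cycs, the cytochrome c that carries electrons from complex III to complex IV, had 0.583 CPM of H2BK120ac in ED and 0.564 in ET, and 0.878 in TD and 0.657 in TT. Gabpb1, a subunit of GABP, had 0.864, 1.04, 8.76 and 7.31 CPM in the same order. Lyrm7, a complex III assembly factor, had 0.548, 0.490, 5.75 and 7.04 CPM. Both stand above Cox20 in TD and in TT, and their regions are shared with no other protein-coding start. Tfam, which packages mitochondrial DNA, had between 0.445 and 0.579 CPM.

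Members with a placed start site but no promoter region were Atp5l, Cox6a2, Cox8b, Ndufa4l2, Ndufb4b and Ndufb4c. Ndufb4b and Ndufb4c are copies of Ndufb4, and reads that match several copies may be lost or split. Just inside the 1 kb limit were regions of Cox14 (954 bp from the start), Ndufa4 (926 bp) and Cox19 (894 bp), with H3K27ac in EtOH of 0.457, 0.341 and 0.686 CPM. Just outside were regions near Ndufb7 (1010 bp), Ndufaf4 (1019 bp) and Uqcr10 (1068 bp), with 0.317 CPM, none and 0.540 CPM.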

How the data were processed

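Per the labels, 28 samples were made, of which the 4 H3K27ac and 12 H2BK120ac samples are used here. Each deposited value is a coverage signal in CPM for 1 region, with replicates merged by the authors. The submitters' processing notes name mm10; no source used here names the aligner. Missing values were set to 0. Start sites came from the RefSeq promoter table for 85 members and from the deposited 5 kb windows for 19. A further 16 value columns that match no sample were not used.

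Folds were taken on log2(value + pseudocount), with a pseudocount of 0.4 CPM for H2BK120ac and 0.2 CPM for H3K27ac (the 25th percentile of positive values), which understates the change of low promoters. A fold of 2 or more was counted. Exact 95% intervals (Clopper-Pearson) for the share of the pile-up were turned into ratios and cover counting error only. For them mean depths, or their sums, were rounded to whole numbers and treated as counts. A mean depth is not a count of fragments, so the intervals are approximate and may sit off the printed ratio. Reads without molecular identifiers are not independent molecules. Tests planned for separate samples could not be run on merged columns. Members, lists and comparisons were chosen with earlier results of these data known. Named were, per comparison, the 5 members of largest fold each way among those averaging 5 fragments, the 5 highest per mark, isoform pairs, members without coverage and the median member of each complex; others named were chosen after their values were seen. Alternatives varied the pseudocount, low-value filter, gene value, window, scaling and member set. The fold and interval code was run on simulated counts with known changes, drawn far deeper than these data. That run checked the code, not the 2-fold counts or the intervals at the depth of these data. Python 3.11.15, pandas 2.3.3, numpy 2.4.6 and scipy 1.17.1 were used.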

Additional observations from a re-analysis of the deposited data

Results flagged for a closer look

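Members whose folds pointed in opposite directions between TD against ED and TT against ET, each by at least 2-fold, were Cox7b2, Ndufv1 and Uqcr11. Cox7b2 had a log2 fold of -1.08 in TD against ED and of 1.03 in TT against ET. Ndufv1 had -1.08 and 1.55, and Uqcr11 had -1.79 and 1.03. All 3 had coverage in ED and TT and none in ET and TD, and no value exceeded 0.982 CPM. That difference was not tested, because each group has 1 merged column.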

How the results depend on the processing

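No value was labelled reversed, and 135 summary values and 112 values of single genes were labelled the same. These labels are coarse. A single gene could be called reversed only if its main fold was at least 2-fold, and was called the same if it shifted by at most 2-fold. Smaller folds could thus change sign and still count as the same. Counts could not be called reversed. The values below are the 45 that moved, as counts of members at least 2-fold higher or lower unless called a median log2 fold. With 2 times the pseudocount, counts were 1 higher and 0 lower in H3K27ac (all genes 0.783% and 0.37%), 13 and 1 between TD and ED (8.7% and 0.838%), 11 and 0 between TT and ET (8.01% and 0.831%), 2 and 1 in ET against ED (0.804% and 0.601%), and 0 and 1 in TT against TD (0.58% and 0.699%), so the all-gene shares fell too. With 0.5 times the pseudocount they were 6 and 4 in H3K27ac (6.39% and 8.05%), 3 lower in TT against ET (11.9%), and 9 and 7 in TT against TD (12% and 10.8%), and the TD against ED median was 0.78. A mean of at least 5 fragments left 40 members with 0 lower in H3K27ac (0.123%). In H2BK120ac it left 1 member, Cox20, which passes through its TD and TT values, so that the filter itself selects for high folds (89% and 87.2% of the 328 genes it leaves were higher in the first 2 comparisons) and says nothing about stability; its log2 folds were 2.27, 2.14, 0.45 and 0.32, so 1 higher and 0 lower in the first 2 comparisons and 0 and 0 in the others. A mean of at least the pseudocount left 75 members in H2BK120ac, with 0 lower in TD against ED (3.58%), 7 higher and 6 lower in ET against ED (5.56% and 5.27%), and 0 higher in TT against TD (3.95%). Scaling columns to the same sum gave an H3K27ac median of 0.05 with 1 higher (all genes 1.68%), and quantile normalization 0.00 with 1 higher (1.8%), and 0 lower in TT against ET (7.84%); both took the all-gene H3K27ac median from 0.15 to 0, and quantile normalization took that of TD against ED from 0.09 to 0.19 and that of TT against ET from 0.12 to 0.28. With unshared starts only, the TD against ED median was 0.15 with 16 higher, ET against ED had 5 higher and TT against TD 1 lower. With subunits only, H3K27ac had 1 lower, ET against ED 7 higher and TT against TD 1 lower. The cause was not tested. Leaving out replicates was not run. No paired analysis was possible because the deposited columns merge the replicates. Most single promoters are limited to a mean depth of 1 to 5 fragments.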
